A study of Homo sapiens with 6 samples.

Results

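The transcripts of 2 caveolins, 2 cavins and 4 syndecans were examined in K562 cells, a human leukemia line derived from a chronic myeloid leukemia in blast crisis, after knockdown of METTL3 or METTL14. The 8 genes were CAV1, CAV2, CAVIN1, CAVIN2, SDC1, SDC2, SDC3 and SDC4, out of 61661 identifiers in the count table. They were chosen by measured values, because CAV1 and SDC1 were among the largest falls in shMETTL14 cells against shCTR cells, and the other 6 are their relatives or partners. All values of these genes that involve shMETTL14 are therefore given as a description with no test, and the genes were tested only in shMETTL3 against shCTR, a comparison that shares the 2 shCTR libraries with the one that chose them. All 8 had at least 10 reads in every library, and all 8 passed the filter on low counts.

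The study sequenced poly(A) RNA of K562 cells in 6 libraries, 2 each of shCTR, shMETTL3 and shMETTL14, to measure what loss of either subunit does to gene expression. shCTR and shMETTL3 were stable lines made with lentivirus that carried a short hairpin under the U6 promoter, GFP and puromycin resistance, with a nonsense sequence as the control hairpin. Of the shMETTL14 cells, the labels give a METTL14 knockdown in the same line, and how it was made is not given in the sources used here. All groups shared the parental line, its medium and collection in logarithmic growth. Nothing says that the 2 libraries of a group came from separate cultures, so the p-values measure the spread between these libraries, which may be technical.

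METTL3 is the catalytic subunit and METTL14 the RNA-binding partner of the enzyme complex that writes N6-methyladenosine on messenger RNA. Caveolae are small flask-shaped pits of the plasma membrane: caveolins sit in the inner leaflet, cavins coat the pit from the cytoplasm, and CAVIN1 is needed for caveolae to form. Syndecans are transmembrane proteoglycans whose heparan sulfate chains hold growth factors, chemokines and matrix proteins at the cell surface, and whose short cytoplasmic tails bind adaptors and the actin cytoskeleton. Syndecan-1 (CD138) is best known in blood as a plasma cell marker.

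Library totals ran from 19292574 to 20115304 reads. METTL3 had 1788 and 1728 reads in shCTR against 1031 and 938 in shMETTL3, and METTL14 had 656 and 655 reads in shCTR against 375 and 404 in shMETTL14. METTL3 fell by 0.87 on the log2 scale in shMETTL3 (SE 0.0783, adjusted p = 3.44e-07) and METTL14 fell by 0.76 in shMETTL14 (SE 0.0886, adjusted p = 1.40e-05; edgeR quasi-likelihood test with Benjamini-Hochberg adjustment over 17686 genes, as for every adjusted p given here). All 10 markers of the K562 erythroleukemia line that were read, such as GATA1 and TAL1, had more than 3 reads in every library, and their summed level was 2016 and 2047 CPM (read counts scaled to a common library size by the TMM factors) in shMETTL3 against 1798 to 1834 CPM elsewhere. In shMETTL3 4 of the 10 rose and 0 fell, against 8.73% and 7.73% of all tested genes. In shMETTL14 3 of them rose and 1 fell, against 3.43% and 3.26%. HBE1, an embryonic globin gene singled out after its values were seen, had 7485 and 8685 reads in shMETTL3. It had 5413 and 5456 in shMETTL14 and 3904 and 4214 in shCTR. Other marker lists also moved with shMETTL3. Megakaryocyte markers summed to 25.2 and 27.8 CPM in shMETTL3 and to at most 16.7 CPM elsewhere, with GP1BB, GP9 and PF4 at 0 reads in all 6 libraries. Endothelial markers summed to 295 and 345 CPM in shMETTL3 and to between 161 and 214 CPM elsewhere, with CDH5 at 0 reads. EGFL7, with 5609 and 6779 reads in shMETTL3 against 3008 and 3582 in shCTR, carried most of that sum, while TIE1 had 124 and 105 against 149 and 127, and PECAM1, KDR and TEK had at most 4 reads in any library. Fibroblast markers summed to 7.33 and 8.15 CPM in shMETTL3 and to between 3.08 and 4.22 CPM elsewhere. COL1A1, with 112 and 110 reads in shMETTL3 against 59 and 42 in shCTR, carried most of that sum. The other genes of this list had at most 16 reads in any library. Epithelial markers summed to 399 and 419 CPM in shMETTL3 and to between 502 and 575 CPM elsewhere, with CDH1 and KRT5 at 0 reads. Plasma cell markers summed to between 122 and 135 CPM in all libraries. XBP1, with 2305 to 2495 reads, carried most of that sum, and PRDM1 had 81 to 136. MZB1 had at most 10 reads in any library, and JCHAIN, IRF4, TNFRSF17, CD79A and CD38 had at most 4. The part of these lists in the results below was not tested.

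**Figure D1:**
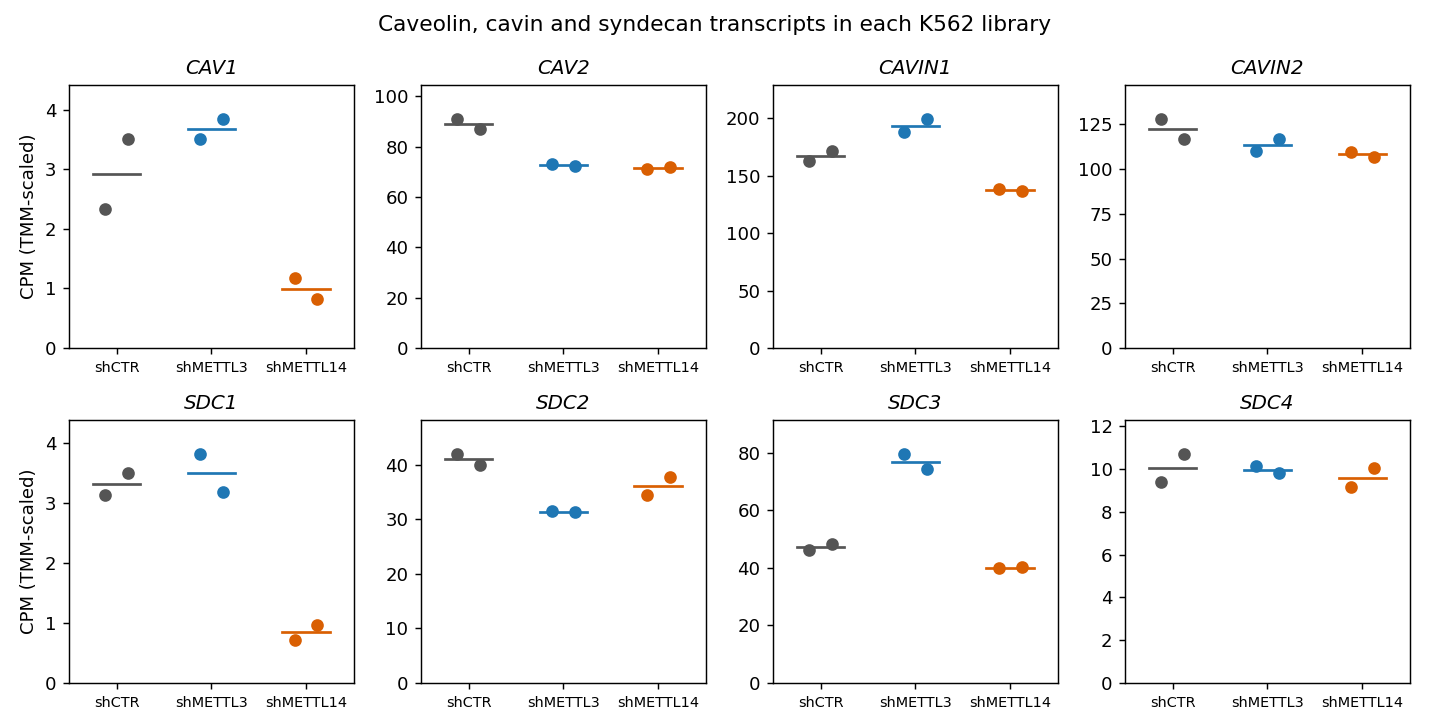
Each panel plots 1 gene: the vertical axis is the TMM-scaled CPM, starting at 0, the points are the 2 libraries of each group and the bar is their mean. CAV1 and SDC1 lie near 1 CPM in both shMETTL14 libraries and between 2.33 and 3.84 CPM in the other 4, and SDC3 lies at 74.2 and 79.6 CPM in shMETTL3 against 39.9 to 48.2 CPM elsewhere.

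The 8 genes spanned a wide range of abundance in shCTR cells. To compare genes, CPM was divided by the length of the longest annotated transcript in kilobases (kb). On this scale the cavins led, with CAVIN1 at 43.6 ± 1.53 and CAVIN2 at 37.9 ± 2.38 CPM per kb (SD, n = 2, as for all levels below). CAV2 followed at 27.0 ± 0.806 CPM per kb. The syndecans were lower, in the order SDC2 (10.9 ± 0.365), SDC3 (7.38 ± 0.217), SDC4 (3.85 ± 0.351) and SDC1 (1.01 ± 0.0778 CPM per kb). CAV1, at 0.910 ± 0.259 CPM per kb, could not be separated from SDC1 beyond the spread of the 2 libraries. The median tested gene lay at 5.65 CPM per kb, so CAV1 and SDC1 were scarce transcripts and the other caveolar genes were above the middle of the range.

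CAV1 (ENSG00000105974, chr7:116524785-116561184, plus strand; gene spans here are those of GENCODE 29 on hg38) encodes caveolin-1, the main structural protein of caveolae outside muscle. It was covered by 46 and 67 reads in shCTR, 69 and 77 in shMETTL3, and 23 and 16 in shMETTL14. Both shMETTL14 libraries lay below every other library. In shMETTL14 the level was 34.3% of that in shCTR, a log2 fold change of -1.54 (SE 0.295), the 46th largest fall among 17686 tested genes and the 10th among the 15595 that had at least 10 reads in every library. The 2 shMETTL3 libraries lay above both shCTR libraries, the nearer of them by 2 reads, but the difference did not pass the test (log2 fold change 0.34, SE 0.239, 95% interval -0.16 to 0.84, adjusted p = 0.368). That estimate moved with the control library, to 0.07 without shCTR library 1 and 0.65 without shCTR library 2.

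CAV2 (ENSG00000105971, chr7:116287380-116508541, plus strand) encodes caveolin-2, which assembles with caveolin-1. It was counted with 1795 and 1667 reads in shCTR, 1439 and 1453 in shMETTL3, and 1398 and 1413 in shMETTL14. Both knockdowns lay below the control in every library, and by a similar amount. CAV2 fell by 0.29 on the log2 scale in shMETTL3 (SE 0.0647, adjusted p = 0.00446), to 81.9% of shCTR. The adjusted p was 0.0721 without shMETTL3 library 2. In shMETTL14 its level was 80.5% of shCTR, a log2 fold change of -0.31 (SE 0.0648). An opposite-strand gene that overlaps its exons had at most 4 reads in any library.

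CAV1 and CAV2 differed in level in these cells. Their difference in shMETTL14 is given as a description, because CAV1 was chosen for its fall there. In shCTR, CAV1 made up 0.659% and 1.01% of the summed CPM per kb of the 4 caveolar genes and CAV2 24.9% and 24.3%. In shMETTL14 the share of CAV1 was 0.397% and 0.281%, and that of CAV2 23.4% and 24.1%.

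The cavins were the most abundant of the 8 genes. CAVIN1 (ENSG00000177469, chr17:42402452-42423517, minus strand), the core of the cavin coat, gave 3216 and 3274 reads in shCTR, 3694 and 3993 in shMETTL3, and 2725 and 2673 in shMETTL14. The 3 groups did not overlap, with shMETTL3 highest and shMETTL14 lowest. CAVIN1 rose 1.16-fold in shMETTL3 (log2 fold change 0.21, SE 0.0615, adjusted p = 0.0213), and in shMETTL14 it was at 82.4% of shCTR (log2 fold change -0.28, SE 0.0622). The rise was a weak call: the adjusted p was 0.0757 without shCTR library 1, 0.0617 without shMETTL3 library 1 and 0.245 without shMETTL3 library 2, and with GC content and transcript length corrected the log2 fold change was 0.08 (adjusted p = 0.255).

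CAVIN2 (ENSG00000168497, chr2:191834302-191847255, minus strand), a phosphatidylserine-binding cavin that shapes the membrane of the pit, gave 2524 and 2237 reads in shCTR, 2161 and 2343 in shMETTL3, and 2149 and 2092 in shMETTL14. Its groups lay close together, and the CPM values of shMETTL3 library 2 and shCTR library 2 were both 116.8. The change in shMETTL3 did not pass the test (log2 fold change -0.11, SE 0.0664, 95% interval -0.25 to 0.03, adjusted p = 0.285). In shMETTL14 the level was 88.3% of shCTR, a log2 fold change of -0.18 (SE 0.0666). The antisense gene CAVIN2-AS1 overlaps its exons and had 63 to 110 reads; the strand setting of the counting is not given in the sources used here, so reads of the pair may not be separable.

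SDC1 (ENSG00000115884, chr2:20200797-20225433, minus strand) encodes syndecan-1. It gave 62 and 67 reads in shCTR, 75 and 64 in shMETTL3, and 14 and 19 in shMETTL14. The 2 shMETTL14 libraries lay far below the other 4, which overlapped each other. The level in shMETTL14 was 25.5% of that in shCTR (log2 fold change -1.97, SE 0.279), the 17th largest fall of 17686 tested genes and the 4th of the 15595 with at least 10 reads in every library. In shMETTL3 no difference was detectable at this depth (log2 fold change 0.08, SE 0.220, 95% interval -0.38 to 0.54, adjusted p = 0.853). In bulk RNA, fewer cells with the transcript and less of it per cell cannot be told apart.

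SDC2 (ENSG00000169439), the syndecan of mesenchymal cells, gave 829 and 766 reads in shCTR, 618 and 627 in shMETTL3, and 675 and 739 in shMETTL14. Here shMETTL3 was the lowest group and shMETTL14 lay between. SDC2 fell by 0.39 on the log2 scale in shMETTL3 (SE 0.0804, adjusted p = 0.00248), to 76.5% of shCTR, and this call held in all 13 alternative settings. In shMETTL14 the level was 87.9% of shCTR (log2 fold change -0.19, SE 0.0795).

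SDC3 (ENSG00000162512, chr1:30869467-30908761, minus strand), the syndecan best known from the nervous system, showed the largest change of the 8 in shMETTL3. It gave 913 and 922 reads in shCTR, 1564 and 1490 in shMETTL3, and 784 and 791 in shMETTL14. The 3 groups were fully separated, shMETTL3 above and shMETTL14 below the control. SDC3 rose 1.63-fold in shMETTL3 (log2 fold change 0.71, SE 0.0697, adjusted p = 1.10e-06), and the call held in all 13 alternative settings, with estimates from 0.56 to 0.76. In shMETTL14 it was at 85.1% of shCTR, a log2 fold change of -0.23 (SE 0.0730). Set against all tested genes, 9.52% had a larger absolute change than SDC3 in shMETTL3.

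SDC4 (ENSG00000124145, chr20:45325288-45348424, minus strand), the syndecan of focal adhesions in most tissues, gave 186 and 205 reads in shCTR, 199 and 197 in shMETTL3, and 180 and 197 in shMETTL14. All 3 groups overlapped. The log2 fold change in shMETTL3 was -0.01 (SE 0.131, 95% interval -0.29 to 0.26, adjusted p = 0.970) and in shMETTL14 -0.07 (SE 0.132). The sign of both estimates was not fixed: without shCTR library 2 they were 0.08 and 0.03.

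Together, 4 of the 8 genes were called in shMETTL3 against shCTR, SDC3 and CAVIN1 higher and SDC2 and CAV2 lower. Of all genes tested there, 8.73% rose and 7.73% fell, and the comparison shares its controls with the one that chose the genes. GC content of the longest transcript was 58.7% for SDC3, 59.9% for CAVIN1, 43.9% for SDC2 and 40.7% for CAV2. The median of tested genes was 48.2%. With GC content and transcript length corrected, their log2 fold changes were 0.56, 0.08, -0.34 and -0.21, each smaller in size, and CAVIN1 was not called. The part of GC content in these changes was not tested. The 4 calls were 2 without shMETTL3 library 2, which left SDC2 and SDC3. In shMETTL14 the log2 fold change of all 8 was below 0, as it was for 50.03% of all tested genes, and the groups overlapped for SDC4 alone. With 2 libraries a group such separation was common: 48.9% of all tested genes had groups that did not overlap, and 23.9% also had shMETTL14 as the lower group. CAV1, CAVIN1 and SDC3 were above every shCTR library in shMETTL3 and below in shMETTL14, as were 3.37% of all tested genes. Without shCTR library 2 the sign of SDC4 turned. In that comparison 3.43% of all genes rose and 3.26% fell, and nothing is read from the members' share because their values there chose them.

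**Figure D2:**
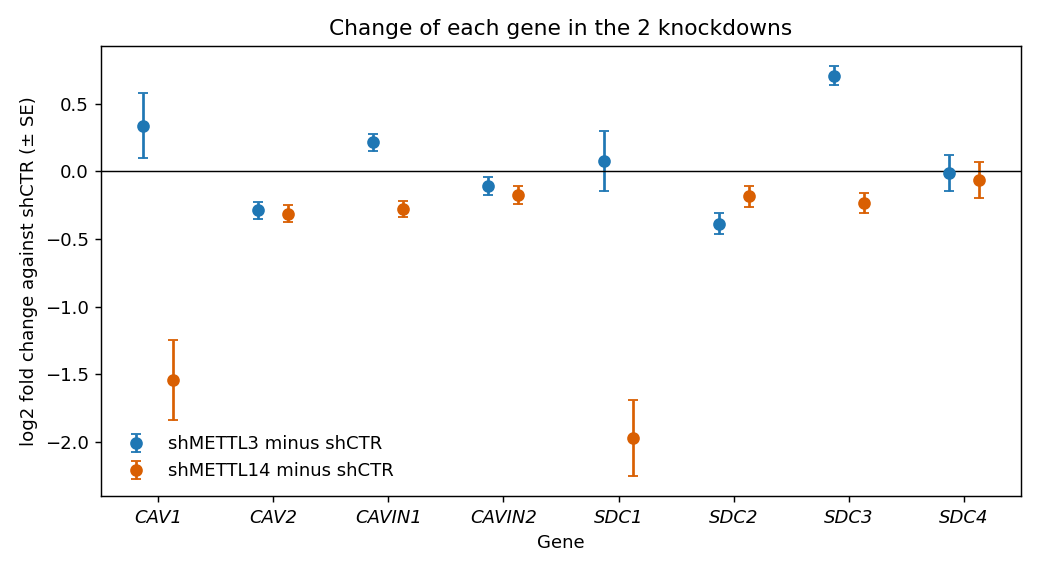
The vertical axis is the log2 fold change against shCTR from the edgeR fit, with bars of 1 SE, for shMETTL3 in blue and shMETTL14 in orange, and the horizontal axis lists the 8 genes. In shMETTL14 SDC1 lies at -1.97 and CAV1 at -1.54 while the other 6 lie between -0.31 and -0.07, and in shMETTL3 SDC3 lies at 0.71 and SDC2 at -0.39.

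The knockdowns were also set against each other. CAV1 had a log2 difference of 1.88 (SE 0.285) and SDC1 of 2.05 (SE 0.276), shMETTL3 minus shMETTL14. SDC3 followed at 0.94 (SE 0.0707) and CAVIN1 at 0.49 (SE 0.0620). CAV2, CAVIN2 and SDC4 lay between 0.02 and 0.07, and SDC2 at -0.20 (SE 0.0812). These differences rest on the shMETTL14 libraries that chose the genes and were not tested.

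The mix of syndecan transcripts differed between the groups. SDC2 was the leading syndecan in shCTR, with 48.6% and 45.6% of the summed CPM per kb of the 4 genes, and in shMETTL14, with 47.8% and 49.0%. In shMETTL3 its share was 32.4% and 33.7%. There SDC3 led with 48.2% and 47.1%, against 31.5% and 32.3% in shCTR and 32.7% and 30.8% in shMETTL14. The lead of SDC2 in shCTR and shMETTL14 depends on the transcript length used. In mean CPM not divided by length, SDC3 was above SDC2 in shCTR (47.2 against 41.0) and in shMETTL14 (40.1 against 36.0). The share of SDC1 was 1.13% and 1.44% in shMETTL14 and between 3.93% and 4.56% in the other 4 libraries. SDC4 held between 15.0% and 18.8% in every library. Among the caveolar genes, CAVIN1 held 46.1% and 46.7% in shMETTL3 and between 38.5% and 41.2% in the other libraries, while CAV2 held 20.8% and 19.7% against 23.4% to 24.9%.

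**Figure D3:**
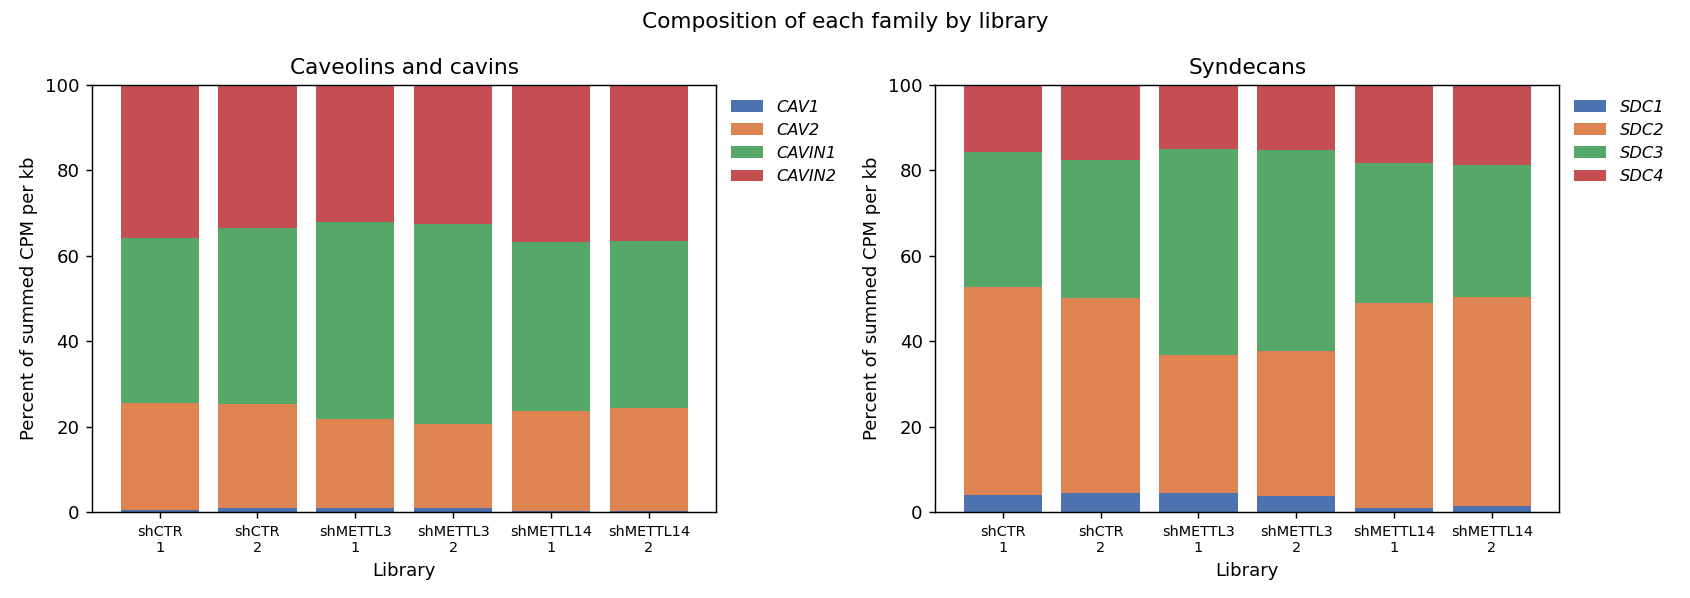
Stacked bars give, for each of the 6 libraries, the percent of the summed CPM per kb of the 4 caveolar genes (left) and the 4 syndecans (right) that each gene held. SDC3 is the largest block of the syndecans in both shMETTL3 libraries, at 48.2% and 47.1%, and SDC2 in the other 4, at 45.6% to 49.0%. The lead of SDC2 in those 4 depends on the transcript length used.

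The promoters of SDC1, SDC3 and SDC4 are shown because these 3 syndecan genes differed in pattern: SDC1 low in shMETTL14, SDC3 high in shMETTL3 and SDC4 flat. Each sequence is the 250 bases before the RefSeq start (GRCh38.p14, minus strand, 5′ to 3′), at chr2:20225476-20225725, chr1:30908759-30909008 and chr20:45348425-45348674. Capitals mark each GC box, the letters GGGCGG searched on both strands.
SDC1: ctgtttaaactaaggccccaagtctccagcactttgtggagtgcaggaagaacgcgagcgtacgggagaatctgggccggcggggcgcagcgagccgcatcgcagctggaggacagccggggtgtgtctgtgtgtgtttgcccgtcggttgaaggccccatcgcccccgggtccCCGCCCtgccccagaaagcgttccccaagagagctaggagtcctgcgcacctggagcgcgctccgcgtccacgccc
SDC3: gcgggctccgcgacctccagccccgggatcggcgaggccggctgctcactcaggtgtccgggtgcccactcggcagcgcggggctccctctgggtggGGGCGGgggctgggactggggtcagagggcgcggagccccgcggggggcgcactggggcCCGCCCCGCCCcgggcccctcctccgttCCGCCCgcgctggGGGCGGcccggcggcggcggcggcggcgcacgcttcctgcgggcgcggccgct
SDC4: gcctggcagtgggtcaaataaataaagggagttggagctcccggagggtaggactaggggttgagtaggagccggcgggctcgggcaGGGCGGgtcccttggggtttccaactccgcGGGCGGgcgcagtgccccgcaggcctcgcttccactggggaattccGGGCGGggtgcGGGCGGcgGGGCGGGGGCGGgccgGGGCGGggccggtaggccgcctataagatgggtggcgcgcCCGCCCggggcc
The SDC1 window held 1 GC box, the SDC3 window 5 and the SDC4 window 8, and 42.64% of 35116 RefSeq promoter windows of this length held at least 1. Their GC content was 66.4%, 83.6% and 73.6%. A CCAAT box (CCAAT, in 32.01% of all windows), a TATA box (TATAAA, in 10.72%), a GATA motif (GATAA, in 20.44%) and an AP-1 motif (TGANTCA, in 6.573%), searched on both strands, were not among the letters of these windows. The SDC3 window includes 3 annotated exonic bases, and the SDC1 and SDC4 windows none. SDC1 has a further RefSeq start, whose window at chr2:20225131-20225380 holds 119 exonic bases and 1 GC box and is not shown. The windows of CAV1, CAV2 and CAVIN2 overlap annotated exons by 85 to 250 bases and are not shown. CAVIN1 and SDC2 are named only.

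The methyltransferase complex acts at short motifs around an adenosine, of which GGACT is a common form. Counted in the longest transcript, SDC1 held 6 copies, or 1.82 per kb, a density that 12.7% of 16662 tested genes with a transcript exceeded. The other 7 held between 0.383 and 0.625 copies per kb, all below the median of 0.909. CAV1, at 2 copies in 3201 bases, and CAV2, at 2 copies in 3301, were nearly equal in this density. Its relation to the changes was not tested. Methylation was not measured in these libraries.

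Genes that work with caveolae and syndecans were read in 7 lists, which held 150 other genes, of which 98 passed the filter. The lists were chosen with earlier results of these data known, so their counts beside all tested genes are a description. In shMETTL3, 28 of the 98 rose and 7 fell, against 8.73% and 7.73% of all tested genes, and their median log2 fold change was 0.11 against 0.00 over all genes. In shMETTL14, 10 rose and 6 fell, against 3.43% and 3.26%, with a median of 0.04 against 0.00. The counts depended on single libraries. In shMETTL3 the genes that rose numbered 18 without shMETTL3 library 1, 16 without shMETTL3 library 2 and 17 by DESeq2, and those that fell 2 without shMETTL3 library 2, 11 without shCTR library 2, 4 with library size alone as scaling and 12 with GC content and length corrected. In shMETTL14 they numbered 3 higher and 2 lower without shMETTL14 library 1, 4 higher and 4 lower without shMETTL14 library 2, and 23 higher without shCTR library 2, and 10 were lower with GC content and length corrected.

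Of the caveola coat and accessory genes, 12 of 16 were tested, and in shMETTL3 6 rose, with a median log2 fold change of 0.35. None fell in either knockdown, by edgeR, by DESeq2 or at an unadjusted p under 0.05. STOM, which encodes the membrane protein stomatin of red cells and rafts, gave 2676 and 2621 reads in shCTR, 4180 and 4875 in shMETTL3 and 2544 and 2408 in shMETTL14, and rose in shMETTL3 (log2 fold change 0.74, SE 0.0681, adjusted p = 3.97e-07). EHD2, an ATPase at the neck of caveolae, gave 1358 and 1393 reads in shCTR, 2011 and 2338 in shMETTL3 and 1797 and 1699 in shMETTL14. It rose in both knockdowns, by 0.63 (SE 0.0727, adjusted p = 6.68e-06) and 0.33 (SE 0.0733, adjusted p = 0.00827). Its relative EHD1 rose by 0.24 in shMETTL3 (adjusted p = 0.0194) and 0.30 in shMETTL14 (adjusted p = 0.00836). The F-BAR gene PACSIN1 rose by 0.58 in shMETTL3 (adjusted p = 0.0161), and the muscle cavin CAVIN4, at 29 reads in both shMETTL3 libraries and 11 to 13 elsewhere, by 1.24 (adjusted p = 0.0241). In shMETTL14 EHD1 and EHD2 were the 2 genes of this list that passed, and the median was 0.07. The calls of STOM and of EHD2 in shMETTL3 held in all 13 alternative settings. Those of PACSIN1, CAVIN4 and EHD1 in shMETTL3 were lost by DESeq2, without either shMETTL3 library and without at least 1 shCTR library, those of PACSIN1 and EHD1 also with GC content and length corrected (log2 fold change of EHD1 0.08, adjusted p = 0.325), and those of EHD1 and EHD2 in shMETTL14 without either shMETTL14 library. CAVIN3 had 0 reads in all libraries, which allows up to 0.149 to 0.156 CPM (3 reads in a library, counting error only).

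Of the genes that build and edit heparan sulfate, 20 of 36 were tested. In shMETTL3 5 rose and 1 fell (median 0.17), and in shMETTL14 3 rose and 1 fell (median 0.10). HPSE, the heparanase that cuts the chains, gave 24 and 19 reads in shCTR, 82 and 109 in shMETTL3 and 29 and 38 in shMETTL14, and rose by 2.11 in shMETTL3 (SE 0.262, adjusted p = 1.61e-05). HS6ST1, which adds 6-O-sulfate, had 131 and 160, 254 and 285, and 158 and 143 reads in shCTR, shMETTL3 and shMETTL14, and rose by 0.86 in shMETTL3 (SE 0.140, adjusted p = 0.000311). SLC35B2, which carries the sulfate donor into the Golgi, rose in both knockdowns, by 0.38 (adjusted p = 0.00129) and 0.41 (adjusted p = 0.00130). These 4 calls held in all 13 alternative settings. The linker galactosyltransferase B3GALT6 and the epimerase GLCE rose by 0.48 and 0.46 in shMETTL3 (adjusted p = 0.00596 and 0.00939), and were lost without shMETTL3 library 2, B3GALT6 also without shCTR library 1 and GLCE also without shCTR library 2 and by DESeq2. In shMETTL14 HS3ST3A1, B4GALT7 and UGDH passed at adjusted p = 0.0196, 0.0493 and 0.0482, with log2 fold changes of 0.41, 0.36 and -0.28, and each was lost without either shMETTL14 library, without at least 1 shCTR library and by DESeq2. EXT1, singled out after its values were seen, encodes a subunit of the chain polymerase and had 0 reads in all 6 libraries, under the same limit as CAVIN3.

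Other proteoglycan cores were tested for 10 of 15 genes, of which 2 rose and none fell in shMETTL3 (median 0.23; by DESeq2 also none fell, and 2 were lower at an unadjusted p under 0.05), and 1 rose and 1 fell in shMETTL14 (median 0.08). GPC5, a glypican anchored in the outer membrane leaflet, gave 25 and 11 reads in shCTR, 96 and 90 in shMETTL3 and 50 and 54 in shMETTL14. It rose by 2.33 in shMETTL3 (SE 0.282, adjusted p = 1.17e-05) and by 1.51 in shMETTL14 (SE 0.305, adjusted p = 0.00428), in all 13 alternative settings. With 25 and 11 reads in shCTR the size depended on the control library: it was 3.01 and 2.19 without shCTR library 1 and 1.88 and 1.06 without shCTR library 2. CD44, the hyaluronan receptor, was scarce, with 18 and 24 reads in shMETTL3, 7 and 7 in shCTR and 3 and 5 in shMETTL14, and rose by 1.54 in shMETTL3 (adjusted p = 0.0269). SRGN, the granule proteoglycan serglycin, had 31 and 33 reads in shMETTL14 against 60 and 62 in shCTR, and fell by 0.94 in shMETTL14 (adjusted p = 0.0233). The CD44 call was lost whichever of the 4 shCTR and shMETTL3 libraries was left out, and that of SRGN whichever of the 4 shCTR and shMETTL14 libraries was left out and by DESeq2.

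The genes whose products bind syndecan tails moved little. Of 12 genes 10 were tested. In shMETTL14 none passed by edgeR or DESeq2, and 2 were higher and 0 lower at an unadjusted p under 0.05. In shMETTL3 EZR, which encodes the membrane to actin linker ezrin, fell by 0.24 (SE 0.0611, adjusted p = 0.0115), from 2767 and 2730 reads to 2366 and 2397. That call was lost without either shMETTL3 library. The medians were -0.05 in shMETTL3 and 0.01 in shMETTL14.

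Sheddases cut syndecans from the surface, and TIMPs inhibit such proteases. Of 16 genes 9 were tested, and 1 rose and 1 fell in each knockdown, with medians of -0.10 and 0.08. ADAM8 fell by 0.57 in shMETTL3 (SE 0.0956, adjusted p = 0.000402), from 474 and 460 reads to 320 and 323, in all 13 alternative settings. ADAM9 fell by 0.39 in shMETTL14 (SE 0.0653, adjusted p = 0.000761), from 2011 and 1874 reads to 1460 and 1531. TIMP1 rose by 0.25 in shMETTL3 and 0.28 in shMETTL14 (adjusted p = 0.0113 and 0.0115). The ADAM9 call was lost without shMETTL14 library 1, and the TIMP1 calls without shCTR library 1 and without either library of the knockdown concerned.

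Among ligands and receptors that bind heparan sulfate, 15 of 28 were tested. In shMETTL3 6 rose and 1 fell (median 0.28), and in shMETTL14 1 rose and 2 fell (median -0.12). FN1, the matrix protein fibronectin, gave 983 and 755 reads in shCTR, 2050 and 1587 in shMETTL3 and 2000 and 1836 in shMETTL14, and rose by 1.04 and 1.13 (SE 0.109 for both, adjusted p = 2.43e-06 and 1.82e-06). THBS1, the matrix protein thrombospondin-1, moved in opposite directions: its reads were 355 and 332 in shCTR, 499 and 601 in shMETTL3 and 176 and 160 in shMETTL14. It rose by 0.65 in shMETTL3 (SE 0.105, adjusted p = 0.000281) and fell by 1.04 in shMETTL14 (SE 0.120, adjusted p = 1.27e-05). VEGFA, the endothelial growth factor, did so too by smaller amounts, 0.28 (adjusted p = 0.00239) and -0.31 (adjusted p = 0.00216). The chemokine gene CXCL8 rose by 0.58 in shMETTL3 (SE 0.0972, adjusted p = 4.00e-04), and MET, the receptor of hepatocyte growth factor, by 0.71 (SE 0.181, adjusted p = 0.0106). The calls of FN1, THBS1 and CXCL8 held in all 13 alternative settings. VEGFA was lost in shMETTL3 with GC content and length corrected and in shMETTL14 without shMETTL14 library 1, and MET by DESeq2 and without shMETTL3 library 2.

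Of the integrins and focal adhesion genes, 22 of 27 were tested, and in shMETTL3 8 rose and 3 fell (median 0.10), while in shMETTL14 2 rose and 1 fell (median -0.08). ITGA2B, the platelet integrin subunit, gave 227 and 254 reads in shCTR, 441 and 405 in shMETTL3 and 220 and 211 in shMETTL14, and rose by 0.78 in shMETTL3 (SE 0.112, adjusted p = 8.21e-05). ITGA7, a laminin receptor subunit, had 49 and 41, 100 and 107, and 42 and 43 reads, and rose by 1.17 (SE 0.205, adjusted p = 0.000598). ITGB3 and ITGA9 were scarce, at 14 and 14 and at 36 and 46 reads in shMETTL3, and rose by 1.75 and 1.04 (adjusted p = 0.0387 and 0.0379). ITGB3 and ITGA2B are also on the megakaryocyte list, whose sum was higher in shMETTL3, and the part of that list in the result was not tested. VCL, the actin linker vinculin, fell in both knockdowns, by 0.38 and 0.36 (adjusted p = 0.000295 and 0.000974), and FERMT3, the blood cell kindlin, rose in both, by 0.47 and 0.36 (adjusted p = 6.57e-05 and 0.00187). PXN, which encodes paxillin, rose by 0.28 in shMETTL14 (adjusted p = 0.0384). The calls of ITGA2B, ITGA7 and VCL and that of FERMT3 in shMETTL3 held in all 13 alternative settings, those of ITGB3 and ITGA9 were lost without either shMETTL3 library, with no filter and in other settings, and in shMETTL14 FERMT3 and PXN were lost without shMETTL14 library 1, PXN also without shMETTL14 library 2 or shCTR library 1, by DESeq2 and with no filter.

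**Figure D4:**
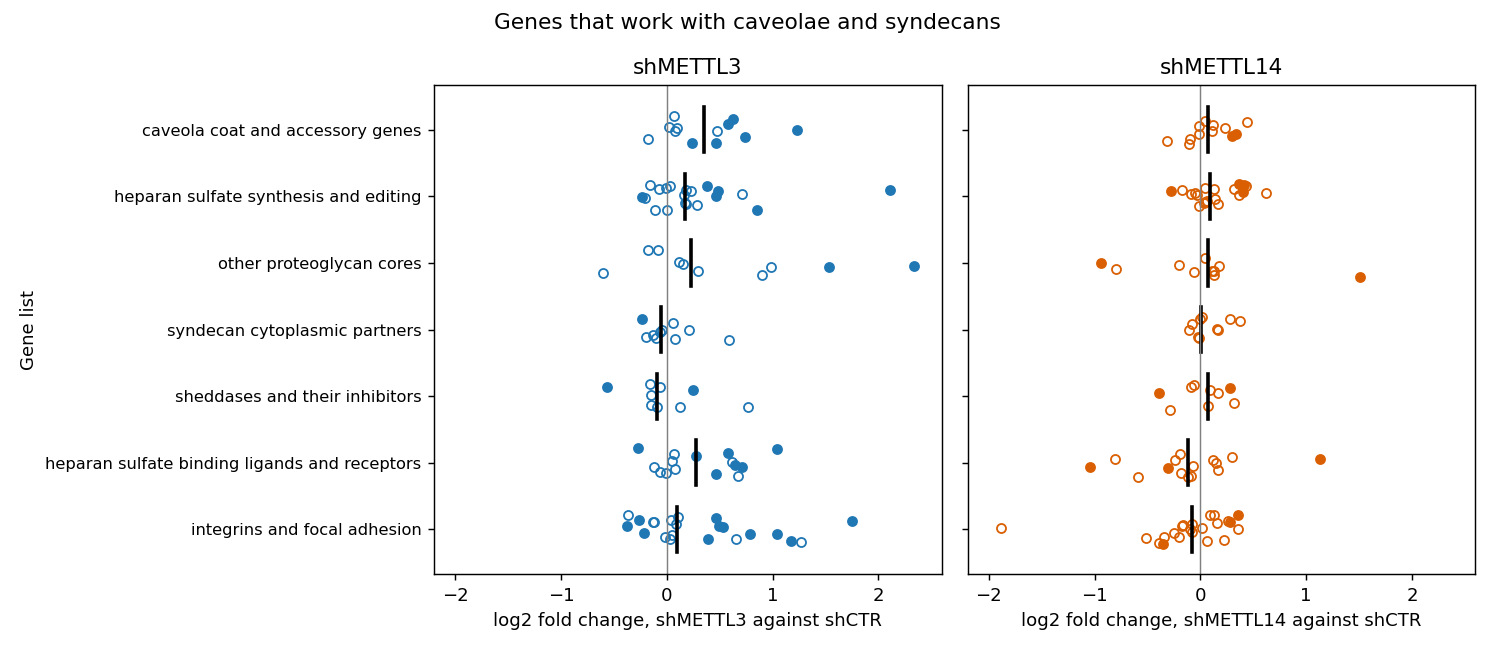
Each point is a tested gene of the list named on the vertical axis, at its log2 fold change against shCTR on the horizontal axis, for shMETTL3 (left) and shMETTL14 (right). Filled points passed an adjusted p of 0.05 and black bars are list medians, of which the highest is 0.35 for the caveola coat and accessory genes in shMETTL3. Vertical scatter within a list carries no value.

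CAV1 and SDC1 were compared with the genes beside them on the chromosome. These 2 genes were chosen for their falls in shMETTL14, so their distance from the neighbours there is a description only. CAV1 lies between CAV2 and MET, and 4 of its 8 other neighbours were tested. TES, on the far side of CAV2, fell by 0.24 in shMETTL14 (SE 0.0663, adjusted p = 0.0312), a call lost without either shMETTL14 library and in 5 other settings, and MET rose in shMETTL3 as given above. CAPZA2 and ST7 had log2 fold changes between -0.19 and 0.15 in both knockdowns and did not pass. SDC1 lies between LAPTM4A and PUM2. Of its 8 neighbours 6 were tested, and in shMETTL14 none passed by edgeR or DESeq2 and 1 was higher at an unadjusted p under 0.05, with values from -0.10 for WDR35 to 0.23 for HS1BP3. In shMETTL3 RHOB rose by 0.60 (SE 0.125, adjusted p = 0.00260) and HS1BP3 by 0.44 (SE 0.0994, adjusted p = 0.00453), each lost without 1 library (shMETTL3 library 1 and shCTR library 1). LAPTM4A, PUM2 and LDAH lay between -0.06 and 0.11 in both knockdowns.

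**Figure D5:**
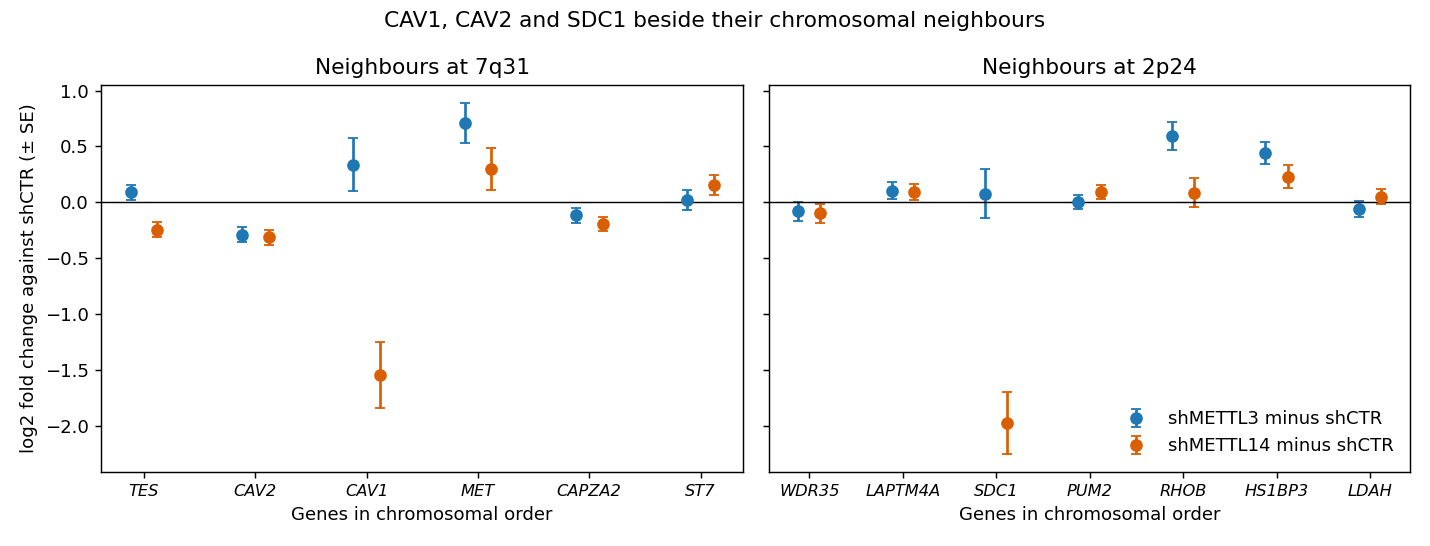
Tested genes are placed in chromosomal order on the horizontal axis (order only, not to scale), with the log2 fold change against shCTR and bars of 1 SE on the vertical axis, for shMETTL3 in blue and shMETTL14 in orange. In shMETTL14 CAV1 lies at -1.54 and SDC1 at -1.97, and their neighbours between -0.31 and 0.30. CAV1 and SDC1 were chosen for these falls, so the gap is a description only.

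Genes with the pattern nearest to that of CAV1 and SDC1 were found by the distance between TMM-scaled log2 CPM values, taken as deviations from the shCTR mean, over the 6 libraries and the 15587 genes other than the 8 with at least 10 reads in every library. Nearest to CAV1 were LRP3, CCND1, GNG7, EPB41L1 and TPD52, at distances of 0.760 to 0.850. CCND1, which encodes cyclin D1, gave 726 and 780 reads in shCTR, 1000 and 1098 in shMETTL3 and 428 and 350 in shMETTL14. Nearest to SDC1 was ZBTB16, which encodes the transcription factor PLZF, at a distance of 0.498: it gave 63 and 58 reads in shCTR, 90 and 70 in shMETTL3 and 14 and 21 in shMETTL14. FAM157B, which has near-identical copies, an unannotated locus, IGFBP4 and ZNF528-AS1 followed at distances of 1.06 to 1.14. CAV1 and SDC1 were 1.02 apart. ZBTB16 alone was nearer to SDC1 than CAV1 was, while 12 genes were nearer to CAV1 than SDC1 was. These genes were found by their values and are a description.

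The lists were also compared between the knockdowns, again as a description, since they were chosen with earlier results of these data known. Of the 98 pathway genes 22 were higher and 8 lower in shMETTL3 than in shMETTL14, against 6.65% and 5.49% of all tested genes, with a median difference of 0.06 against 0.00. The higher genes included THBS1, with a log2 difference of 1.69 (SE 0.115, adjusted p = 5.42e-09), STOM, with 0.85 (SE 0.0684, adjusted p = 6.02e-08), and ITGA2B, with 0.96 (SE 0.114, adjusted p = 9.05e-06).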

How the data were processed

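The samples were 6 RNA-seq libraries of K562 cells (shCTR, shMETTL3 and shMETTL14, 2 of each). The authors deposited whole-number read counts per gene, not normalized; the submitters' processing notes name HTSeq 0.6.1 and hg38, and the aligner, annotation and strand setting are not given in the sources used here. Symbols came from a gene name table and GENCODE 29, and promoters from RefSeq (GRCh38.p14). Totals ran from 19292574 to 20115304 reads. Counts were tested in R 4.3.3 with edgeR 4.0.16: filterByExpr (minimum count 10, 17686 genes kept), TMM factors and the quasi-likelihood test on all 6 libraries together, p-values adjusted by the Benjamini-Hochberg method and called under 0.05. The steps were tested on simulated counts. The members and lists were chosen with earlier results of these data known. Named genes were the 8 members, up to 4 genes per list and knockdown with the largest change past the threshold and at least 10 reads in every library of a group, METTL3, METTL14, the tested neighbours, and the 5 genes nearest in pattern to CAV1 and to SDC1. Replicate numbers were not taken as pairs. Alternatives were DESeq2 1.42.0, its size factors, library size alone, no filter, the compared groups alone, a replicate block, a GC content and length correction (mgcv 1.9.3), and each library left out. 1 gene of the marker lists is not reported here.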

Additional observations from a re-analysis of the deposited data

Results flagged for a closer look

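For 3 of the 8 genes both shMETTL3 libraries lay above, and both shMETTL14 libraries below, the 2 shCTR libraries, an order that 3.37% of all tested genes showed. Nothing is read from their number beside that share, because shMETTL14 values chose the genes. The log2 fold changes against shCTR were 0.34 in shMETTL3 and -1.54 in shMETTL14 for CAV1, 0.21 and -0.28 for CAVIN1, and 0.71 and -0.23 for SDC3. In shMETTL3 that of CAV1 did not pass the edgeR quasi-likelihood test (adjusted p = 0.368). That of CAVIN1 in shMETTL3 was 0.08 with GC content and length corrected, and did not pass the same test (adjusted p = 0.255). The difference between the knockdowns was not tested for these genes, because shMETTL14 values chose them, and both fold changes share the shCTR libraries.

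Among the genes named from the lists and the chromosomal neighbours, 18 passed the test of the difference between the knockdowns (edgeR quasi-likelihood test, adjusted p from 5.42e-09 for THBS1 to 0.0282 for CAVIN4), all higher in shMETTL3 than in shMETTL14. The genes were named for a change in either knockdown, so nothing is read from their number or their shared direction. Of the 98 pathway genes, 8 were lower in shMETTL3 than in shMETTL14. The 18 calls were not followed through the alternative settings. In the caveola list the log2 differences, shMETTL3 minus shMETTL14, were 1.25 for CAVIN4, 0.85 for STOM, 0.30 for EHD2 and 0.89 for PACSIN1. Among heparan sulfate enzymes they were 1.49 for HPSE and 0.82 for HS6ST1, and among proteoglycan cores 0.82 for GPC5 and 2.34 for CD44. The sheddase ADAM9 had 0.24. Among ligands the values were 1.69 for THBS1, 0.77 for CXCL8 and 0.59 for VEGFA. Among integrin subunits they were 3.63 for ITGB3, which had 1 read in each shMETTL14 library, 1.26 for ITGA7, 1.43 for ITGA9 and 0.96 for ITGA2B. Of the chromosomal neighbours, TES had 0.33 and RHOB 0.51. The fold of ITGB3 depends on the prior count and is no bound.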

How the results depend on the processing

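All adjusted values here are from edgeR's quasi-likelihood test unless DESeq2 is named. The calls in shMETTL3 against shCTR numbered 2912 (1544 higher, 1368 lower), in shMETTL14 against shCTR 1184 (607 higher, 577 lower) and in shMETTL3 against shMETTL14 2148 (1177 higher, 971 lower). DESeq2 made 1752, 713 and 1243 calls. With no filter on low counts shMETTL14 against shCTR had 766. With library size alone as scaling the splits were 2158 higher and 858 lower, 743 and 443, and 1399 and 754, and the median log2 fold change over all genes moved from 0.00 to 0.06 in shMETTL3 against shCTR. Leaving out each library gave 1102 to 3569, 341 to 1913 and 942 to 2953 calls, lowest without shMETTL3 library 2, shMETTL14 library 1 and shMETTL14 library 1. The members called in shMETTL3 numbered 4, and 2 to 4 with a library left out. The sign of uncalled members turned in shMETTL3 against shCTR: SDC4 was 0.044 with library size alone and -0.11 to 0.081 with a library left out, and SDC1 was -0.0515 with GC content and length corrected and -0.056 to 0.20 with a library left out. The cause of these shifts was not tested. In shMETTL14 against shCTR the estimates of SDC1 ran from -2.21 to -1.77 and those of CAV1 from -1.83 to -1.22 over all 13 alternatives. Of the genes named from the lists and neighbours, 14 of 28 calls in shMETTL3 and 5 of 17 in shMETTL14 held in every alternative, and none changed sign. With the replicate numbers as a replicate block, calls numbered 3264, 1459 and 2478 and the same 4 members were called. Same-numbered libraries were not shown to pair: their differences correlated at 0.175, -0.0252 and -0.0341 over 12769 genes in the 3 pairs of groups. At 14 to 77 reads in a library, CAV1 and SDC1 carry standard errors of 0.220 to 0.295 on the log2 scale. Differences somewhat above 1 SE could not be told from the spread either. For CAV1 in shMETTL3 a log2 fold change of 0.34 (SE 0.239, 95% interval -0.16 to 0.84) was not called. A group left with 1 library was taken to vary like the others, and the main test also pooled the spread over the groups. The spread was not equal. Between the 2 libraries of a group, mean chi-square per gene was 5.30 in shCTR, 3.04 in shMETTL3 and 2.55 in shMETTL14.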
